A study of Homo sapiens with 2 samples.

Results

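The genes described here are MACROD2, WWOX, IMMP2L, LRBA, RABGAP1L, FNDC3B, SND1, ATXN1 and UBE2E2, 9 very long protein-coding genes that each held at least 2 contact sites of the splicing factor SNRPA1. They are 9 of the 1286 genes that held a peak in a deposited list of peak heights. They were picked by name, for their length and their number of peaks in that list, so both quantities are described below and not tested. Contacts were mapped by irCLIP, which crosslinks proteins to the RNA they touch, pulls 1 protein down and sequences the RNA that comes with it. The samples were 2 biological replicates of MDA-231-LM2, a human breast cancer line selected from MDA-MB-231 for its spread to the lung, and were precipitated with an antibody to the endogenous SNRPA1. No treatment, genotype or second group is named, and neither of the 2 peak lists keeps the replicates apart. No spread between replicates could therefore be computed, no group comparison exists, and no control library was analysed here. Depth per library is unknown.

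SNRPA1 is a protein subunit of the U2 small nuclear ribonucleoprotein, the part of the spliceosome that recognises the branch site near the 3′ end of an intron. Very long genes owe their length to introns, so most of the RNA copied from them is removed by splicing. Some of the longest genes of the genome lie at common fragile sites, which are chromosomal regions prone to breaks when DNA replication is slowed. MACROD2, WWOX and IMMP2L are such genes. Whether a site lies in an exon, an intron or a UTR, and its sequence, were not analysed here.

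Peaks in the 9 genes were 3 to 8 tags high and lay far apart. The height list, in which a peak's strength is its height in tags, held 23 peaks in them, or 1.68% of its 1373 distinct intervals. The list made with the peak caller CLIPper, which gives reads per interval, held 45 intervals in them, or 0.588% of 7651. In 4 places the CLIPper list cut 1 site into 2 abutting intervals, and joining these left 41 sites, with the higher read number kept. All 23 height-list peaks lay on a CLIPper interval that carried the gene's own identifier. The identifiers were assigned from intervals at these peaks, so that result was fixed in advance and nothing is read from it. Over the whole height list, 97.2% of intervals lay on a CLIPper interval. Both lists were deposited for the same libraries, so their overlap is no measure of replication.

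The name "several peaks" held for MACROD2, with 5, and WWOX, with 4. The other 7 genes held 2 each. Among genes with a peak, 10.7% held at least 2 and 0.233% at least 4. Since the genes were chosen for this number, nothing is read from it. Of the 583 protein-coding genes at least as long as FNDC3B, the shortest of the 9, 37.6% held a peak and 9.43% at least 2. Outside the 9, 39 genes of that length held 2 peaks and 7 held at least 3, so the 7 members with 2 peaks were not set apart by their number of peaks.

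**Figure D1:**
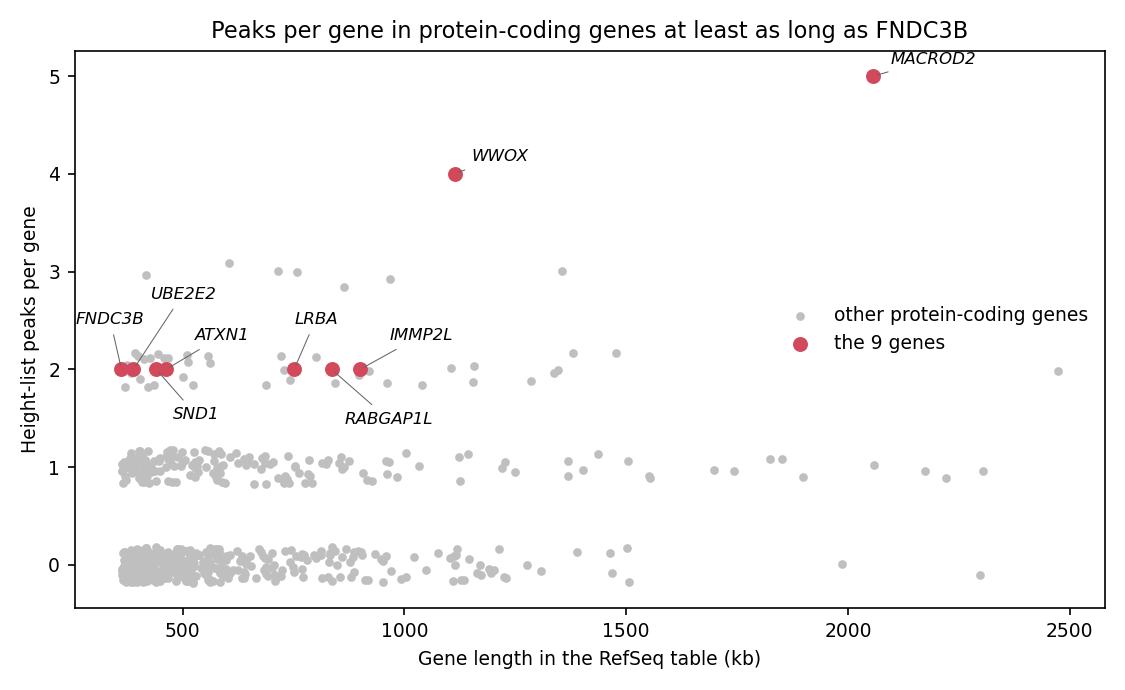
Height-list peaks per gene (vertical axis, grey points spread by a small random offset) against gene length in kb in the RefSeq table (horizontal axis), for the 583 protein-coding genes at least as long as FNDC3B. The 9 genes are in red, and MACROD2 with 5 peaks and WWOX with 4 lie above all others plotted.

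Of the 3 fragile-site genes, MACROD2 and WWOX held the most sites of the 9 and IMMP2L shared the fewest with ATXN1. MACROD2 encodes a mono-ADP-ribosylhydrolase, an enzyme that removes ADP-ribose from proteins, and at 2058 kb it was the seventh longest protein-coding gene of the table. On hg19 chromosome 20, plus strand, its 8 CLIPper sites ran from 14135207 to 15639986, a span of 1505 kb. From 5′ to 3′ they had 5, 4, 5, 10, 6, 6, 9 and 4 reads. The 5 height-list peaks lay on the third to the seventh of these sites and were 3, 8, 6, 3 and 4 tags high. The tallest, of 8 tags (95% Poisson interval 3.45 to 15.8), lay at 15003521 to 15003553. The intervals of all 5 heights overlapped, so their order is not resolved by the tags. From the first to the last, the peaks spanned 646 kb, or 31.4% of the gene's length. The distances between neighbouring sites of MACROD2 were 256, 528, 84.9, 22.8, 182, 356 and 75.8 kb. The peaks listed at 8 and 6 tags were its closest pair, and since the order of heights is not resolved, nothing is read from this.

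The tallest MACROD2 site was the only site of the gene shared with another identifier. A CLIPper interval of 10 reads at 15003521 to 15003552, on the same strand, carries ENSG00000201180.1 and lies inside the 10-read interval that carries the MACROD2 identifier ENSG00000172264.12. The deposited files pair ENSG00000201180.1 with no name. The gene table places 15 other genes inside MACROD2, 1 of them protein-coding. The rest are long noncoding RNAs and pseudogenes, some of the latter named as copies of small RNAs. Whether the shared site lies on one of these was not analysed. Reads of the shared site cannot be told apart between the 2 identifiers. Apart from that site MACROD2 had 4 height-list peaks of 3 to 6 tags.

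WWOX encodes an oxidoreductase with WW domains and is described as a tumour suppressor. It was 1113 kb long, and its 8 CLIPper sites spanned 971 kb of hg19 chromosome 16, plus strand (78137140 to 79108353). They fell into a 5′ run and a 3′ run of 4 sites each. The 5′ run covered 271 kb with 5, 3, 3 and 3 reads, and no site in it had a height-list peak. A distance of 371 kb without a site followed, the largest in the gene. The 3′ run covered 329 kb, from 78779419 to 79108353, with 5, 6, 5 and 11 reads, and each of its sites had a height-list peak, of 3, 4, 3 and 5 tags. Summed reads were 14 in the 5′ run and 27 in the 3′ run, and 5 reads were the highest value of the first and the lowest of the second. The 3′-most site had the highest value of WWOX in both lists, with 11 reads (95% Poisson interval 5.49 to 19.7) and 5 tags (1.62 to 11.7). In each list its interval overlapped those of the gene's other sites, so the order is not resolved. The runs were drawn after the values were seen and no test was made.

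IMMP2L encodes a subunit of the peptidase of the inner mitochondrial membrane that cleaves signal peptides. At 899.8 kb it was the third longest of the 9, yet only 8.80% of its length separated its outermost sites. Its 2 sites lay 79.2 kb apart on hg19 chromosome 7, minus strand. The 5′ site (110803528 to 110803565) had 7 reads and 4 tags, and the 3′ site (110724342 to 110724374) had 4 reads and 4 tags. The heights were equal, and the CLIPper list had cut the 3′ site into 2 intervals of 4 reads each.

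A list of 29 other genes, which mixes large genes at or near common fragile sites with other very long genes and was written from general knowledge, was set beside them. In it 18 genes held a peak: 14 held 1, 3 held 2, among them RBFOX1, and SDK1 held 3. FHIT, an early described fragile-site gene, had 1 peak of 28 tags, taller than any peak of the 9 genes, and CSMD1 had 1 of 27 tags. PTPRD and 10 further genes of the list were without a peak. The list held 0.0564 peaks per 100 kb of gene, the other protein-coding genes of at least FNDC3B's length 0.0714, and MACROD2, WWOX and IMMP2L, which were picked for their peaks, together 0.270. The remaining 6 of the 9 genes held 0.370 per 100 kb. The last 2 values rest on 11 and 12 peaks, and each of the 6 genes held 2, so no order is read from them.

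**Figure D2:**
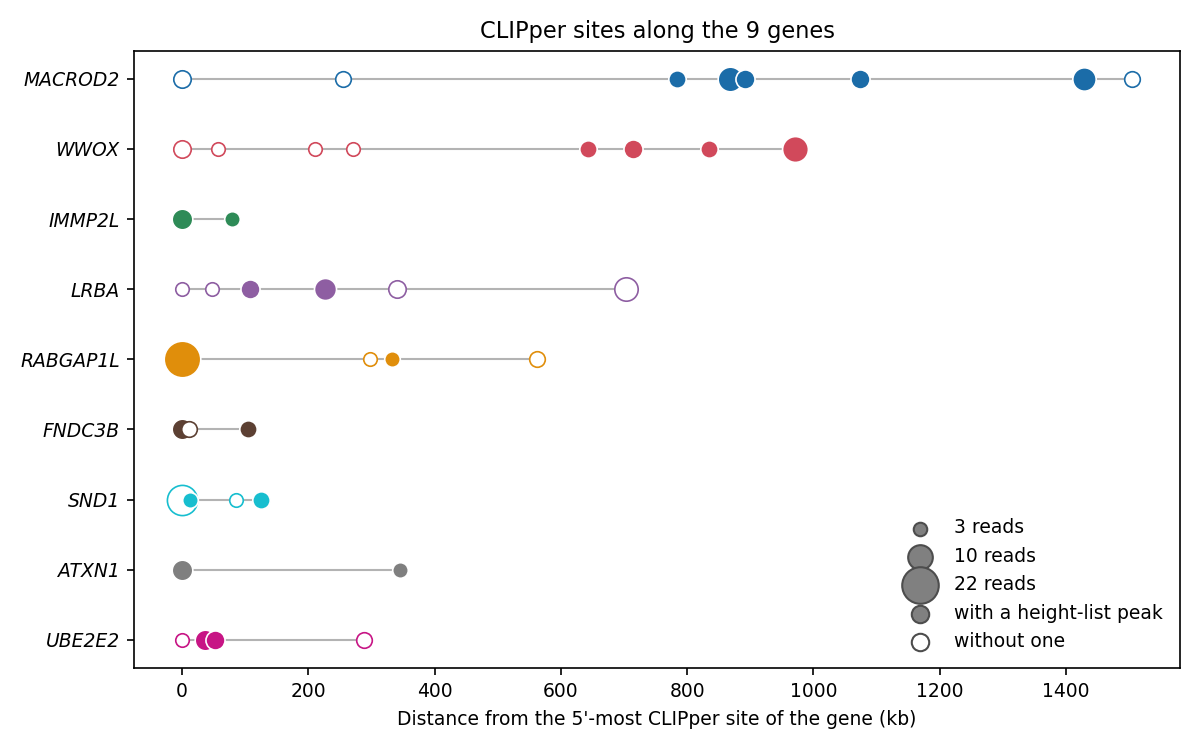
CLIPper sites along each of the 9 genes, as distance in kb from the gene's own 5′-most site. Circle area is proportional to reads, filled circles have a height-list peak and open circles have none. The 4 filled sites of WWOX follow its 4 open ones, and the largest open circle is the 15-read site of SND1.

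Of the genes of membrane traffic, LRBA, which encodes a large BEACH-domain protein that keeps CTLA4 from being degraded, had 6 CLIPper sites over 703 kb of hg19 chromosome 4, minus strand. From 5′ to 3′ they had 3, 3, 6, 8, 5 and 9 reads. Height-list peaks lay on the third (151816041 to 151816073) and the fourth (151696947 to 151696978) and were 3 tags high each. The 3′-most site, with the most reads of the gene (9, 95% Poisson interval 4.12 to 17.1), had no height-list peak. It lay 362 kb from its nearest neighbour, at 151220632 to 151220666. Its read interval overlapped those of the other LRBA sites, so the order of reads is not resolved. From the first to the last, LRBA sites spanned 93.5% of the gene's length, the widest share among the 9.

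RABGAP1L encodes a GTPase-activating protein of the Rab family of traffic regulators. It had 4 sites over 562 kb of hg19 chromosome 1, plus strand, with 22, 3, 4 and 4 reads. The first, at 174261471 to 174261508, had the most reads of any site in the 9 genes (22, 95% Poisson interval 13.8 to 33.3). Its peak of 8 tags equalled the tallest of MACROD2. The only other peak of RABGAP1L was 4 tags high at a site of 4 reads, 333 kb downstream of the first. The read interval of the first site did not overlap those of the others, whose upper bounds were 8.77 to 10.2.

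FNDC3B encodes a fibronectin type III domain protein of the endoplasmic reticulum membrane. Its 3 sites lay within 105 kb of hg19 chromosome 3, plus strand, with 7, 4 and 5 reads. The first (171945962 to 171945994) and the last (172051298 to 172051329) had peaks of 4 tags each. The middle site, 11.7 kb from the first, had none. That distance was the smallest between neighbouring sites in the 9 genes.

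SND1 encodes a Tudor and nuclease domain protein that binds RNA and takes part in transcription and small RNA pathways. Its 4 sites lay within 126 kb of hg19 chromosome 7, plus strand, with 15, 4, 3 and 5 reads. The strongest (127562228 to 127562264; 15 reads, 95% Poisson interval 8.40 to 24.7; deposited p of 1.97e-14) had no height-list peak. Peaks of 3 tags each lay instead on the sites of 4 reads and of 5 reads. SND1 and LRBA were thus the members whose site with the most reads lacked a peak. In both genes the read interval of that site overlapped those of the other sites, so its rank is not resolved.

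ATXN1 encodes ataxin-1, a transcriptional regulator whose expanded polyglutamine tract causes a spinocerebellar ataxia. It had 2 sites, 345 kb apart, on hg19 chromosome 6, minus strand, and both had a peak. The 5′ site (16759747 to 16759783) had 7 reads and 6 tags, and the 3′ site (16414720 to 16414755) had 4 reads and 3 tags. The 5′ interval is also listed under ENSG00000215019.1, with the same 7 reads, so the gene of origin is uncertain there.

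UBE2E2 encodes a ubiquitin-conjugating enzyme. Its 4 sites spanned 288 kb of hg19 chromosome 3, plus strand, with 3, 7, 6 and 4 reads. Both peaks, of 3 tags each, lay on the middle sites (23302487 to 23302519 and 23318526 to 23318558), 16.0 kb apart. This was the closest pair of peaks in the 9 genes. The outer sites had the fewest reads and no peak.

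Across the 9 genes the heights had the median of the whole list and lacked its tall peaks. The 23 peaks had 3 to 8 tags with a median of 4, equal to the median of all height-list intervals. Of them 11 had 3 tags, the lowest height listed, and 7 had 4. At least 5 tags were reached by 5 peaks (40.2% of all height-list intervals did) and at least 10 tags by 0 (10.2% of all). Among the 46 other protein-coding genes of at least FNDC3B's length with 2 or more peaks, the tallest peak was 3 to 100 tags high, with a median of 6, and reached 10 tags in 15 genes. In the 9 genes the tallest peak was 3 to 8 tags high, with a median of 4. The 9 were picked with heights known, so this difference was not tested. Genes outside the 9 with at least 3 peaks included ANKRD30BL (110.4 kb), which held 10, more than MACROD2, with a tallest peak of 25 tags. In HDAC8 (243.3 kb) the tallest peak was 102 tags, in TENM3 (1355 kb) 49 and in LINC00910 (19.1 kb) 505. Others stayed as low as the 9: CHST11 had 3 peaks of 3 tags each, and SMYD3, a 758 kb gene, 3 peaks of at most 5 tags.

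By reads, too, the 9 genes had the median of the whole CLIPper list. Their 45 intervals had a median of 5 reads, as did all 7651. Values of 10 or more reads were found in 4 of the 45 intervals (17.7% of all intervals), in RABGAP1L, SND1, WWOX and MACROD2. The number of intervals per gene was 2 in ATXN1, 3 in IMMP2L, 4 in FNDC3B and SND1, 5 in RABGAP1L and UBE2E2, 6 in LRBA and 8 in MACROD2 and WWOX. At least 2 intervals were listed for 36.8% of all 4848 Ensembl identifiers and at least 8 for 0.619%. Per 100 kb of gene, intervals numbered from 0.333 in IMMP2L (95% Poisson interval 0.0688 to 0.974) to 1.29 in UBE2E2 (0.418 to 3.001). Of the genes with 8 intervals, MACROD2 was at 0.389 (0.168 to 0.766) and WWOX at 0.719 (0.310 to 1.42). The intervals of all 9 densities overlapped, so their order is not resolved.

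Sites with a height-list peak had 4 to 22 reads with a median of 6, and the 18 sites without a peak had 3 to 15 reads with a median of 4. The ranges overlapped. No site of 3 reads had a peak, and 8 of the 18 sites without a peak had 3 reads. Over the whole series, 2317 CLIPper intervals had 3 reads, while 77 shared peaks had 3 tags and 3 reads. Both lists were deposited for the same libraries, so nothing is read from these counts. In MACROD2, WWOX, RABGAP1L, FNDC3B and UBE2E2 no site without a peak had more reads than a site with one, while in LRBA and SND1 the order was broken by the 9-read and the 15-read site. A peak was present at 57.8% of the 45 intervals (95% Clopper-Pearson interval 42.2 to 72.3), against 20.8% of all CLIPper intervals. The genes were picked for their peaks, so nothing is read from that contrast.

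At the 23 shared sites the ratio of CLIPper reads to tags ranged from 1 to 2.75, with a median of 1.67, the same as over all 1335 shared peaks of the series. Reads equalled tags at 3 sites, namely the 6-tag site of MACROD2, the 3′ site of IMMP2L and the 4-tag site of RABGAP1L. The highest ratios were 2.75 at the first RABGAP1L site and 2.67 at the 8-read site of LRBA. The plot of reads against tags shows the 9 genes inside the cloud of all shared peaks, at its lower left.

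**Figure D3:**
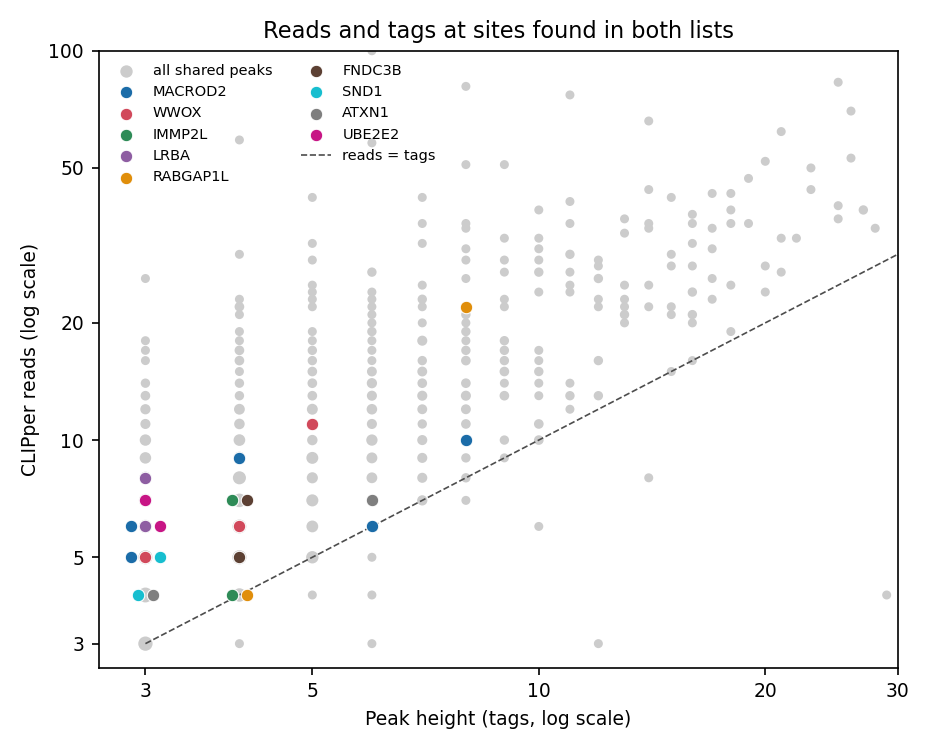
CLIPper reads against peak height in tags, both on log scales, for shared peaks of the whole series of up to 30 tags and 100 reads (grey) and the 23 peaks of the 9 genes (coloured by gene, and moved slightly sideways where genes coincide). The dashed line marks equal reads and tags, and all 23 peaks lie on or above it.

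Neighbouring sites were rarely close. The 32 distances between neighbouring sites within the 9 genes had a median of 89.3 kb and ranged from 11.7 kb in FNDC3B to 528 kb in MACROD2. None was under 10 kb, where 23.5% of the 2004 distances between neighbouring joined sites over all Ensembl identifiers were. Distances over 100 kb made up 15 of the 32 (46.9%), against 25.1% over all identifiers, whose median was 36.9 kb. Gene length, for which the 9 were picked, moves with this result, and its part was not tested. All identifiers include genes of any length, and a gene shorter than 100 kb cannot hold a distance over 100 kb. Distances in genes of like length were not computed, so nothing is read from this contrast. Peaks of the height list were 31 to 35 nt wide, with a median of 33 nt, the same median as over the whole list.

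The P that the authors deposited for a height-list peak differed between genes at equal height. Within a gene, peaks of equal height had equal P. Between genes, a peak of 3 tags had a P of 0.0103 in UBE2E2, 0.0181 in LRBA, 0.0188 in ATXN1, 0.0257 in MACROD2, 0.0269 in SND1 and 0.0381 in WWOX. UBE2E2 (388.8 kb) had the lowest of these P and WWOX (1113 kb) the highest, while SND1 (440.4 kb) lay next to MACROD2 (2058 kb). Any part of gene length in this order was not tested. Peaks of 4 tags ranged from 6.74e-07 in IMMP2L to 1.03e-05 in FNDC3B. At 8 tags the P was 1.61e-08 in RABGAP1L and 1e-100, the lowest value listed, in MACROD2. Many intervals share that lowest value, so the size of the difference is not read. In the CLIPper list, a different measure, the RABGAP1L site had 22 reads and the MACROD2 site, shared with another identifier, 10. Only MACROD2, with its peaks of 8 and 6 tags, reached the lowest P of the list, where 19.3% of all height-list intervals lay.

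In the CLIPper list the deposited p of the 9 genes followed the reads and differed little between genes. Intervals of 5 reads had a p of 0.000599 to 0.000606 in 5 genes, and those of 3 reads 0.0190 to 0.0191 in 5 genes. Over the whole CLIPper list, the 962 intervals of 5 reads had a median p of 0.000604, inside the range of the 9 genes, and a highest p of 0.0484. At the tallest MACROD2 site the interval under ENSG00000201180.1 had a p of 0.00284, and the MACROD2 interval of the same 10 reads a p of 1.02e-08. P-values in both lists are those of the authors' callers.

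**Figure D4:**
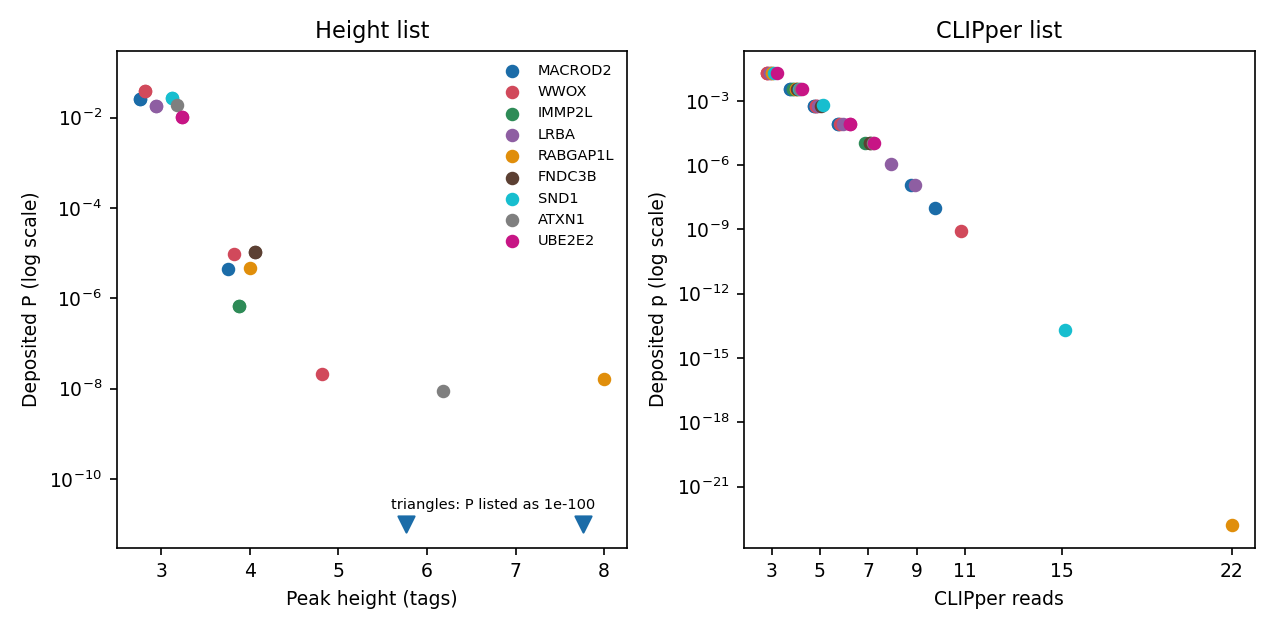
Deposited P against peak height in tags in the height list (left, 23 peaks) and deposited p against reads in the CLIPper list (right, 45 intervals), on log axes and coloured by gene with a small sideways offset. On the left genes differ at equal height, and the MACROD2 peaks of 6 and 8 tags (triangles, P of 1e-100) are drawn at the lower edge. On the right the genes nearly coincide at equal reads.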

How the data were processed

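SNRPA1 irCLIP was done in 2 biological replicates, which form 1 group. Per the submitters' processing notes, cutadapt 1.10, BWA 0.7 and genome build hg19 were used. The authors deposited 1 list with a p-value per interval, made with CLIPper per the file's name, with gene identifier and reads in the interval's name. The other list, pooled per its file name, holds the deposited signal of each interval as peak height in tags, beside an Entrez gene and a P, and the sources used here do not name its caller.

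Repeated entries were counted once. The 9 genes were matched by Entrez identifier to the RefSeq table of GRCh38.p14, used only for names, lengths and containment. It holds no Ensembl identifiers, so each gene took the identifier found on CLIPper intervals at every one of its peaks, which was 1 for each gene. Overlap meant at least 1 nt on the same strand. Intervals of a gene within 50 nt were joined. Distances are between interval centres, and positions are 1-based. Poisson and Clopper-Pearson intervals (95%) cover counting error only. No test was made. Counting, joining and spacing were checked on made-up intervals of known position. The members and lists were chosen with earlier results of these data known. All 9 members were named. Other genes were named if they held at least 3 peaks, belonged to the fragile-site list or were among the 10 longest. Alternatives covered thresholds, overlap, joining, lengths and reads. Scripts ran in Python 3.11.15 with scipy 1.17.1, pandas 2.3.3, matplotlib 3.10.9 and numpy 2.4.6.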

Additional observations from a re-analysis of the deposited data

How the results depend on the processing

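Of 19 alternatives, 10 stayed within the error or, for counts, within 1.5 times. Among these, overlap within 50 nt could not change the share of the 9 genes' peaks on a CLIPper interval, which was already complete. The 23 height-list peaks of the 9 genes fell to 12 with P under 1e-3, to 10 with P under 1e-5 and to 5 with at least 5 tags. The 45 CLIPper intervals fell to 26 with p under 1e-3, to 26 with at least 5 reads and to 7 with p under 1e-5. Stricter thresholds leave fewer by construction. The median distance rose from 77.5 kb (89.3 kb for joined sites) to 518 kb with p under 1e-5, which left 2 distances. Intervals per 100 kb rose from 0.615 to 0.961 when divided by the span of the sites, which is shorter than the gene. The median of reads per tag was 1.67, and 1.25 in the 5 peaks of at least 5 tags; the cause was not tested. Unknown depth limits every count. No paired analysis was possible because there is only 1 group. Neither replicate could be left out, since 1 list pools them and the other names no sample.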

Other observations

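The 10 longest protein-coding genes of the table give a scale for MACROD2, the seventh of them. RBFOX1, the longest at 2474 kb, held 2 peaks. CNTNAP2, DMD, DLG2, CSMD1, LRP1B and CTNNA3 held 1 each, and PTPRD and EYS were without a peak. Of these, CSMD1 (27 tags) and RBFOX1 (10 tags) had a taller peak than the 8 tags of MACROD2.

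No CLIPper interval on the opposite strand lay between the first and the last site of any of the 9 genes. Over all 646 Ensembl identifiers whose intervals span at least 50 kb, 2.17% enclosed one. At so small a share, its absence from 9 genes is not read as a trait of them either. No height-list peak of another gene lay inside the span of any of the 9. The share over all genes was not computed for this, so it is not read as a trait of the 9.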
